A study of Mus musculus with 4 samples.

Results

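The genes described here are 10 genes of the MHC class II antigen presentation pathway of the mouse, H2-Aa, H2-Ab1, H2-Eb1, Cd74, H2-DMa, H2-DMb1, H2-DMb2, H2-Oa, H2-Ob and Ciita. They were chosen by name, and all 10 were found among the 13792 genes listed for each RNA library. The RVKM-Ascl2 library came from B cells that were isolated as naive cells from C57BL/6 mice, infected with a retrovirus carrying Ascl2 and kept in culture under stimulation by anti-IgM plus anti-CD40 antibodies. The RVKM-Empty library came from B cells of the same strain that received the same virus without an insert and the same stimulation. Ascl2 belongs to the basic helix-loop-helix family of transcription factors. Animal age, the number of mice, the share of cells that took up virus and any sort after infection are not stated in the labels, and the virus drives Ascl2 from outside its own locus. Each group had 1 library, so no value has a replicate error, no test was possible, and every difference below is one between these libraries. The 2 chromatin samples of the series, an input and an Ascl2 immunoprecipitation from germinal centre B cells, were not analysed here.

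Class II molecules carry peptides from the endosomal pathway to the surface of B cells, dendritic cells and macrophages, where CD4 T cells read them. An alpha and a beta chain assemble on the invariant chain (Cd74), which blocks the peptide groove and leads the complex to endosomes. Proteases trim the invariant chain there, the DM heterodimer exchanges its last fragment for peptide, and the DO heterodimer, made mainly by B cells and thymic epithelium, restrains DM. Transcription of these genes depends on the coactivator Ciita, which is recruited by factors bound to the X and Y boxes of their promoters. B cells use the pathway to obtain help from T cells, and it is shut down when they become plasma cells.

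The values are abundances per gene that the authors scaled for depth. They appear to be scaled for length too, and levels of different genes are compared on that scale. The Ascl2 gene was at 29.4 in the RVKM-Ascl2 library, against 0.0809 in the RVKM-Empty library, so the labels hold for the inserted gene. Markers checked the cell type. All 13 B cell markers were listed, with a median of 325.9 with Ascl2 and 256.9 with the empty vector. Class II genes are also high in dendritic cells and macrophages. Of 11 dendritic cell markers, 5 were listed, summing to 221.6 with Ascl2 and 209.4 with the empty vector. The higher sum with Ascl2 rests on Ly75 (120.1 and 99.4), since the log2 ratios of Batf3, Flt3, Ccr7 and Zbtb46 were below 0, and the median was −0.04. Itgax, Xcr1, Clec9a, Siglech, Cd209a and Clec10a were not among the listed genes. Of 12 macrophage and monocyte markers, 9 were listed, summing to 47.0 with Ascl2 and 44.9 with the empty vector. Of these 9, 7 had a log2 ratio above 0 (median 0.21), with Lyz2 at 21.4 and 16.0. Among the 12283 genes that reached 1 in either library, 5945 had a log2 ratio above 0. Of the 7, Cd14 (1.63 and 1.18), Csf1r (1.06 and 0.78), C1qc (1.46 and 0.83) and Fcgr1 (0.863 and 0.619) had very low values. Cd68 (10.8 and 16.2) and C1qa (0.478 and 1.07) were lower with Ascl2. Of 8 T cell markers, Thy1 (346.1 and 394.8) and Cd28 (0.752 and 0.734) were listed, and Cd3d, Cd3e, Cd3g, Cd4, Cd8a and Trac were not. The part of any such cells in the class II values was not tested. In libraries of this kind, fewer cells of a type and less RNA per cell cannot be told apart.

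The class II genes were abundant in both libraries and mostly somewhat lower with Ascl2, with no large difference in any of them. Together the 10 genes summed to 9022.7 with Ascl2 and 11484 with the empty vector, which is 1.18% and 1.53% of all listed abundance. Each log2 ratio sets the value with Ascl2 over that with the empty vector, after adding 1 to both. None of the 10 was 2-fold or 1.5-fold apart in either direction. Among the 12283 genes that reached 1 in either library (kept genes), 1.53% were at least 2-fold higher with Ascl2 and 0.716% at least 2-fold lower, and 5.01% and 4.31% were past 1.5-fold. With the values as deposited, 9 of the 10 had a log2 ratio below 0, against 51.6% of kept genes, and the median over the 10 was −0.20, against −0.01 over all kept genes. At 1.2-fold, 4 of 10 were lower with Ascl2 (Cd74, H2-Ab1, H2-DMa and H2-Oa), where 20.9% of kept genes were, and none was higher, where 18.5% of kept genes were. The libraries' scaling bears on the count below 0: with the Ascl2 values scaled up by 0.10 on the log2 scale, so that sums without the 20 most abundant genes and immunoglobulin genes are equal, 6 of 10 were below 0, against 39.8% of kept genes on that scale, and H2-Aa, H2-DMb1 and Ciita were slightly above it. With upper quartiles made equal 7 of 10 were below 0, against 48.8% of kept genes, and with medians made equal, where kept genes balance around 0 by construction, 8 of 10 were.

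**Figure D1:**
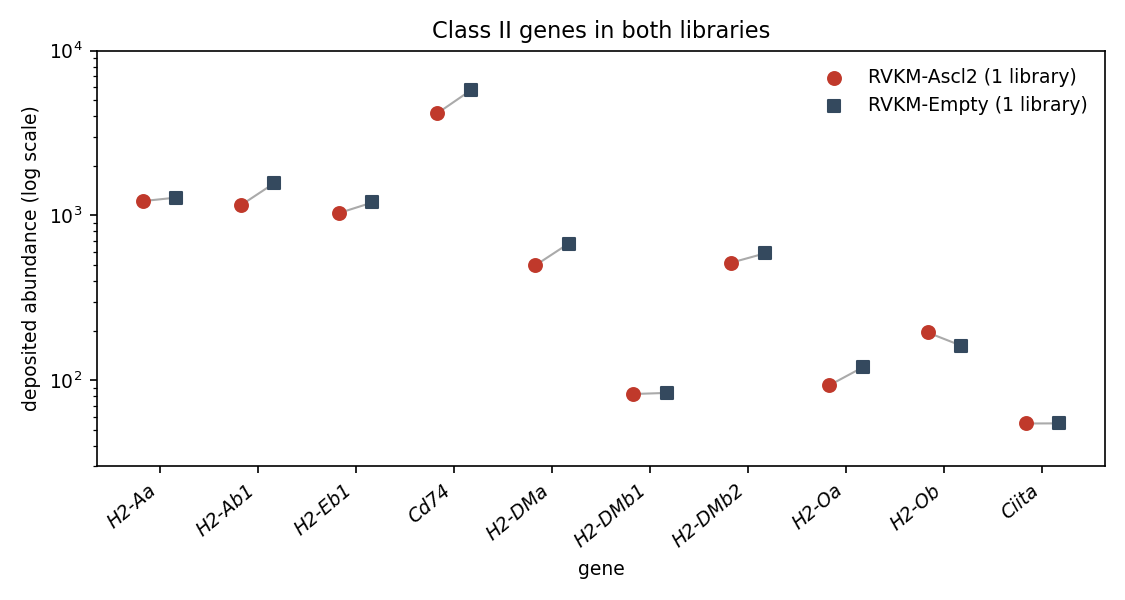
Deposited abundance (log axis) of the 10 class II genes in the RVKM-Ascl2 library (circles) and the RVKM-Empty library (squares), 1 library each, joined by a line per gene. H2-Ob was the gene that was higher with Ascl2, at 195.0 against 162.4, while Cd74 was at 4168 against 5742.

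Level and genomic span moved with the log2 ratio. Among 1982 kept genes with a mean value of at least 50, where all 10 class II genes lie, the median log2 ratio was −0.07, 60.0% were below 0, and 23.2% were at least 1.2-fold lower and 14.9% at least 1.2-fold higher with Ascl2. Of these, 1206 had a genomic span no longer than that of H2-DMa, which is the longest of the class II genes but for Ciita. Their median was −0.12, and 65.01% of them were below 0, with 29.2% at least 1.2-fold lower and 16.6% at least 1.2-fold higher with Ascl2. The part of level and span in the class II values was not tested. The 5 genes most like them, taken as those among the 100 most abundant with a log2 ratio nearest to −0.20, were Pabpc1, Rps14, Rps3a1, Rps15a and Hspa8, with log2 ratios from −0.21 to −0.17. With 2 libraries this likeness covers a ratio alone.

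**Figure D2:**
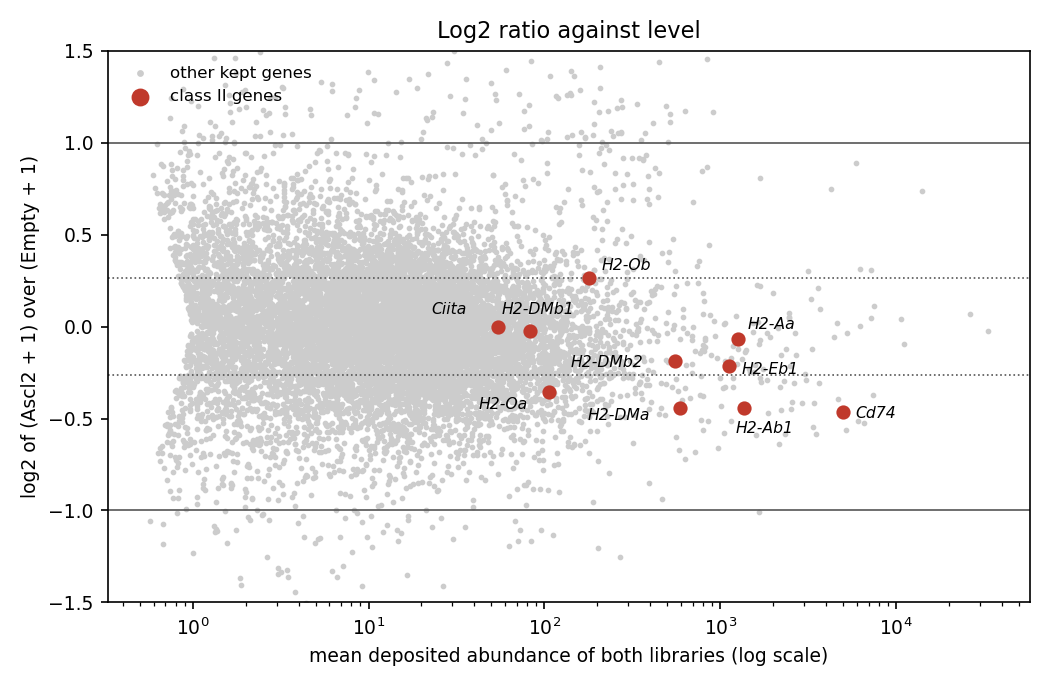
Log2 ratio of each kept gene (vertical axis) against its mean abundance in both libraries (horizontal, log axis), with class II genes as large labelled points. Solid lines mark 2-fold and dotted lines 1.2-fold, and 71 genes beyond 1.5 on the vertical axis are not drawn. Class II genes lie between −0.46 and 0.26, toward the right of the plot.

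Of the 10 genes, 8 lie in the class II region of chromosome 17, within 277.1 kb from the start of H2-Oa to the end of Btnl2 (positions on GRCm38, the assembly also called mm10). Cd74 lies on chromosome 18 (60803849 to 60812652) and Ciita on chromosome 16 (10480014 to 10531064). RefSeq places 18 genes in that interval, 16 of them were listed in the files, and 11 of these 16 had a log2 ratio below 0, with a median of −0.17. Below 0 were also 51.6% of kept genes and 65.01% of the abundant genes of short span described above. Class II genes and their neighbours were interleaved in their ratios. Of 7 other listed genes of the region that were followed as a list, none was 1.5-fold apart, 4 were below 0, and their median was −0.15. Psmb8, an immunoproteasome subunit gene between the DM genes and H2-Ob, was 196.1 with Ascl2 and 263.4 with the empty vector (−0.42). Tap2, a peptide transporter gene, was 52.7 with Ascl2 and 60.5 with the empty vector (−0.20). Brd2, a bromodomain gene next to H2-DMa, was 129.8 with Ascl2 and 125.4 with the empty vector (0.05). Next to H2-Ob, the noncoding RNA gene Gm20506 was 5.54 with Ascl2 and 3.59 with the empty vector (0.51), so these adjacent genes had the highest ratios of the region. In the annotation H2-DMa overlaps Brd2, and H2-Oa overlaps the noncoding RNA gene BC051537, so reads of H2-DMa and H2-Oa are uncertain, since the counting is not described.

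**Figure D3:**
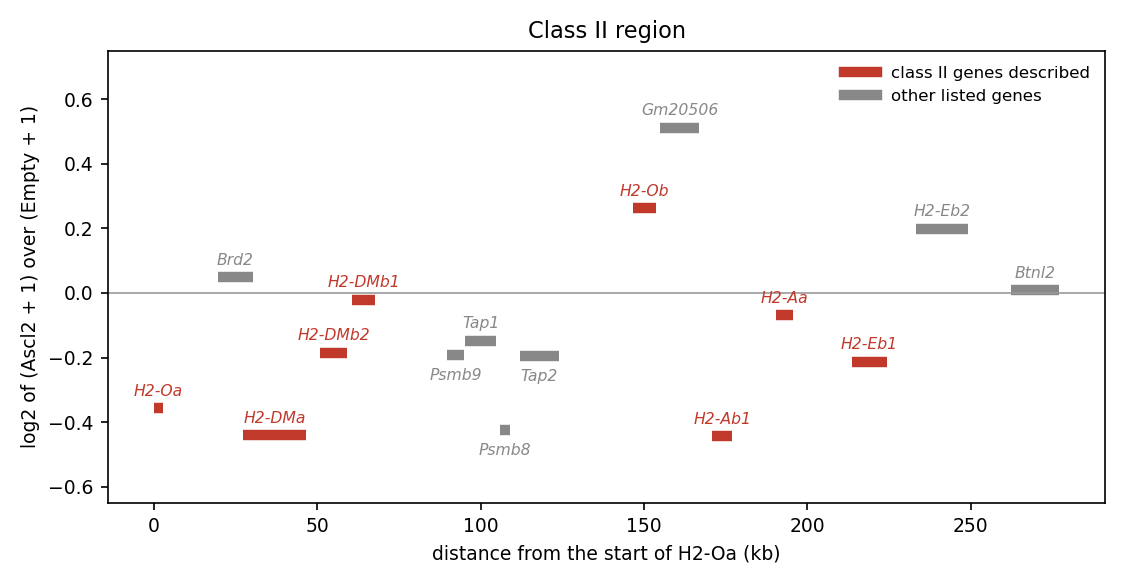
Log2 ratio (vertical axis) of the listed genes of the class II region against distance from the start of H2-Oa in kb, each gene drawn over its span, with class II genes in red and neighbours in grey. Gm20506 and H2-Ob stand highest, at 0.51 and 0.26, and H2-Ab1, H2-DMa and Psmb8 lowest, between −0.44 and −0.42.

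The promoters of 7 of the 10 genes were matched in the RefSeq-based sequences of GRCm38.p6, each from 250 bases before to 50 bases after the start, with 2 starts for H2-DMa. Those of H2-Ab1, Cd74 and Ciita were not matched, and Cd74 and H2-Ab1 had the lowest log2 ratios of the 10. The letters searched on both strands were ATTGG for the Y box core, AGNAAC followed by any 3 bases and TG for the X box core, TGACG for the cyclic AMP response element core, and CAGCTG and CANNTG for E boxes, the elements that basic helix-loop-helix factors bind. The Y box core was in all 7 matched genes and in 7 of their 8 promoters, against 37.4% of all 32851 promoters. Of the 2 starts of H2-DMa, 1 lacked it. The X box core was in H2-DMb1, H2-Eb1 and H2-Ob, and in 4.18% of all promoters. In these 3 it stood 34, 33 and 31 bases before the Y box core. The E box CAGCTG was in H2-Aa, H2-Eb1 and H2-Ob, against 16.3% of all promoters. It is among the sequences that CANNTG matches (5 of 7 genes and 5 of their 8 promoters, against 72.3% of all promoters). The CANNTG matches of H2-Eb1 at −90 and of H2-Ob at −83 overlap their X box cores. TGACG was in H2-Aa alone of the 7, against 20.8% of all promoters. These are matches of letters, and no binding was measured here. The 6 stretches of 90 bases given next are those around the ATTGG match of the gene strand in H2-Aa, H2-Eb1, H2-DMb1, H2-DMb2, H2-Oa and H2-Ob. They were chosen because this match lies near the start, between −90 and −43. H2-DMa is not shown, since its match lies further off, at −198. Capitals mark the Y box core, the X box core, TGACG and CAGCTG. The CANNTG matches within X box cores are capital as part of them, and no further CANNTG match lies within these stretches. The stretch of H2-Oa is chr17:34092276-34092365 (plus strand), that of H2-Ob is chr17:34238788-34238877 (plus), that of H2-Aa is chr17:34287842-34287931 (minus), that of H2-Eb1 is chr17:34305748-34305837 (plus), that of H2-DMb1 is chr17:34153070-34153159 (plus) and that of H2-DMb2 is chr17:34145099-34145188 (plus).
H2-Aa: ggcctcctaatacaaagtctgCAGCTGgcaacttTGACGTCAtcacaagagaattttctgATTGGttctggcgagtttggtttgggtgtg
H2-Eb1: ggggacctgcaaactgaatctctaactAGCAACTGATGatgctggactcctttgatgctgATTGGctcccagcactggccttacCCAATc
H2-DMb1: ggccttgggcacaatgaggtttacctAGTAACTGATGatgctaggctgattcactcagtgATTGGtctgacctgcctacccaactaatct
H2-DMb2: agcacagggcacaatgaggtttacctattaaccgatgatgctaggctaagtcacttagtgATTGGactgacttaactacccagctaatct
H2-Oa: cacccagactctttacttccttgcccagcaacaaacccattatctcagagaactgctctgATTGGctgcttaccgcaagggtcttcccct
H2-Ob: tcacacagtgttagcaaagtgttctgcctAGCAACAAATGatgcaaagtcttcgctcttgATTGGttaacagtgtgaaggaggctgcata

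The classical chains differed unequally. H2-Aa and H2-Ab1 encode the alpha and beta chains of the I-A molecule, the class II molecule of C57BL/6 B cells. H2-Aa (ENSMUSG00000036594, chromosome 17, 34282744 to 34287823) was 1223 with Ascl2 and 1284 with the empty vector, a log2 ratio of −0.07, with 42.3% of kept genes below it. H2-Ab1 (ENSMUSG00000073421, 34263227 to 34269418) was 1156 with Ascl2 and 1573 with the empty vector, a log2 ratio of −0.44, with 8.72% of kept genes below it. With Ascl2 the beta chain gene was thus at 0.735 times its empty-vector value and the alpha chain gene at 0.953 times, and their order by level differed between the libraries. The ratio of H2-Aa to H2-Ab1, which does not depend on how the libraries are scaled, was 1.06 with Ascl2 and 0.816 with the empty vector.

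H2-Eb1 encodes the beta chain of the I-E molecule. C57BL/6 mice do not make the I-E alpha chain, and the annotation used here lists H2-Ea as a transcribed pseudogene, so H2-Eb1 RNA has no classical partner in these cells. H2-Eb1 (ENSMUSG00000060586, 34305867 to 34316674) was nonetheless at 1035 with Ascl2 and 1200 with the empty vector, ranks 93 and 88 among all listed genes. Its log2 ratio was −0.21, between those of H2-Aa and H2-Ab1. Its ratio to H2-Ab1 was 0.895 with Ascl2 and 0.763 with the empty vector. The related beta chain gene H2-Eb2 was far lower, at 22.1 with Ascl2 and 19.1 with the empty vector (0.20).

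The invariant chain gene Cd74 (ENSMUSG00000024610) had the highest level of the 10 and the lowest log2 ratio. It was 4168 with Ascl2 and 5742 with the empty vector, ranks 21 and 14 among all listed genes, with a log2 ratio of −0.46 and 7.81% of kept genes below it. Cd74 alone took 46.19% of the class II sum with Ascl2 and 50.01% with the empty vector, so the summed difference leans on it. Without Cd74 the other 9 genes summed to 4855.2 with Ascl2 and 5741.1 with the empty vector, a ratio of 0.846, against 0.786 for all 10. Cd74 and H2-Ab1 lay close to each other in their ratios, and Cd74 over H2-Ab1 was 3.60 with Ascl2 and 3.65 with the empty vector. Cd74 over the sum of H2-Aa, H2-Ab1 and H2-Eb1 was 1.22 with Ascl2 and 1.42 with the empty vector.

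The DM genes encode the peptide exchange factor. The alpha chain gene H2-DMa (ENSMUSG00000037649, 34119693 to 34139101) was 497.6 with Ascl2 and 675.5 with the empty vector, a log2 ratio of −0.44. The mouse has a pair of beta chain genes side by side. H2-DMb2 (ENSMUSG00000037548, 34143229 to 34151553) was 517.4 with Ascl2 and 588.4 with the empty vector (−0.19). H2-DMb1 (ENSMUSG00000079547, 34153191 to 34160229) was far lower, at 82.5 with Ascl2 and 83.7 with the empty vector (−0.02). The promoters of H2-DMb1 and H2-DMb2 shared 69.3% of 300 bases in a global alignment, against 44.0% to 57.3% for the other 20 pairs of matched promoters (the first listed start of H2-DMa was used). How reads were divided between these paralogs is not described, so their separate values are uncertain. Their sum was 599.85 with Ascl2 and 672.1 with the empty vector. H2-DMa over that sum was 0.830 with Ascl2 and 1.005 with the empty vector, so alpha and beta chain RNA were level with each other with the empty vector and the alpha chain was the lower of the pair with Ascl2.

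The DO genes went opposite ways. H2-Oa, the alpha chain gene (ENSMUSG00000024334, 34092379 to 34095234), was 93.3 with Ascl2 and 119.8 with the empty vector, a log2 ratio of −0.36. H2-Ob, the beta chain gene (ENSMUSG00000041538, 34238905 to 34245908), was 195.0 with Ascl2 and 162.4 with the empty vector, a log2 ratio of 0.26, with 81.5% of kept genes below it. The ratio of its values was 1.201, just short of the 1.2-fold limit once the pseudocount is added and past it with a pseudocount of 0.1 or under each of the 3 rescalings. H2-Ob had a ratio above 0 in every setting that was run, and none of the other 9 genes did. H2-Oa over H2-Ob was 0.478 with Ascl2 and 0.738 with the empty vector, and among the 6 level ratios compared this one differed most between the libraries (−0.63 on the log2 scale). The 2 DO genes together summed to 288.3 with Ascl2 and 282.1 with the empty vector, because the differences were opposite. The DM genes over the DO genes, as sums, were 3.81 with Ascl2 and 4.78 with the empty vector. The alpha chain genes kept closer to each other, and H2-DMa over H2-Oa was 5.34 with Ascl2 and 5.64 with the empty vector.

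**Figure D4:**
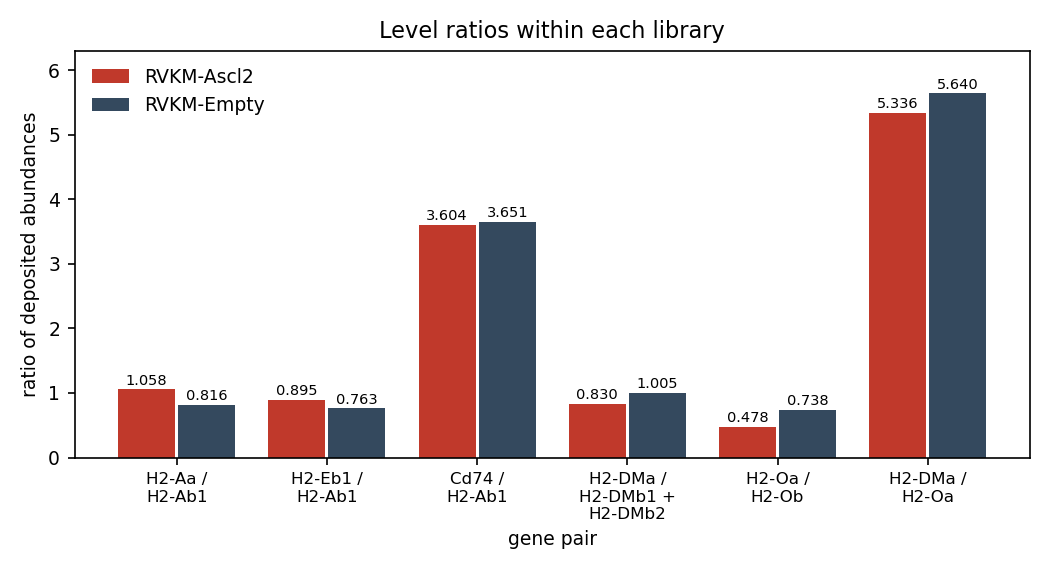
Ratio of deposited abundances (vertical axis, from 0) for 6 gene pairs within the RVKM-Ascl2 library (left bar) and the RVKM-Empty library (right bar), 1 library each with no error. H2-Oa over H2-Ob was 0.478 against 0.738, while Cd74 over H2-Ab1 was 3.60 against 3.65.

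Ciita (ENSMUSG00000022504), the class II coactivator, was the least abundant of the 10 and nearly equal in both libraries. It was 54.6 with Ascl2 and 54.7 with the empty vector, ranks 1762 and 1838, with a log2 ratio of −0.002. Its ratio was 0.10 with the sums made equal as above, which is the size of that rescaling. H2-Ab1 over Ciita was 21.2 with Ascl2 and 28.8 with the empty vector. By level the order with Ascl2 was Cd74, H2-Aa, H2-Ab1, H2-Eb1, H2-DMb2, H2-DMa, H2-Ob, H2-Oa, H2-DMb1 and Ciita. With the empty vector H2-Ab1 stood above H2-Aa and H2-DMa above H2-DMb2, and the rest of the order was as with Ascl2. Whether neighbours in the order differ cannot be said without replicates.

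Genes that act on the class II promoters were mostly similar in both libraries. Of 13 listed promoter factors and cofactors, none was 1.5-fold apart, and the median log2 ratio was −0.05. The subunits of RFX, which binds the X box, were close to equal: Rfx5 was 22.3 with Ascl2 and 23.1 with the empty vector, Rfxank 16.2 and 15.6, and Rfxap 26.3 and 24.1. The largest differences were those of the arginine methyltransferase gene Carm1, at 27.0 with Ascl2 and 38.6 with the empty vector (−0.50), the acetyltransferase gene Kat2b, at 6.17 and 4.34 (0.42), and Nfyc, a subunit of the Y box factor, at 21.6 and 26.3 (−0.27).

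Of 15 listed regulators of Ciita or of its B cell programme, Prdm1 was past 2-fold and Bach2 past 1.5-fold on the higher side with Ascl2, and none was 1.5-fold lower (median −0.01). Of kept genes, 1.53% were at least 2-fold higher, 5.01% at least 1.5-fold higher and 4.31% at least 1.5-fold lower. Prdm1 encodes Blimp-1, a repressor of Ciita in plasma cells, and was 9.23 with Ascl2 and 3.10 with the empty vector, a log2 ratio of 1.32. Bach2 represses Prdm1 and was 13.0 with Ascl2 and 7.06 with the empty vector (0.80). Ciita itself was level in the same libraries. Of 6 plasma cell markers, 5 were listed, Tnfrsf17 not among them. Of the 5, 4 had a log2 ratio above 0 (median 0.29), as did 5945 of the 12283 kept genes. The 5 markers summed to 693.4 with Ascl2 and 444.8 with the empty vector, and Jchain (301.2 and 112.8) made up most of that difference. Sdc1 was lower with Ascl2, at 2.37 against 2.99 (−0.25). Prdm1 and Irf4 are on this marker list as well as among the regulators of Ciita. The part of the plasma cell markers in the class II values was not tested. Spi1, which encodes the Ets factor PU.1, was 15.4 with Ascl2 and 21.5 with the empty vector (−0.45). Of its partners, Irf8 was 172 with Ascl2 and 198.5 with the empty vector (−0.21), and Irf4 was 108.2 and 88.3 (0.29). The E protein gene Tcf3 had the lowest ratio of the list (−0.48).

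Genes that process the invariant chain and antigen showed no difference past 1.5-fold in any of 13 (median −0.12). Ctss, the cathepsin that makes the late cuts in the invariant chain in B cells, was 232.3 with Ascl2 and 222.7 with the empty vector (0.06). Sppl2a, the membrane protease that clears the remaining Cd74 stub, was 30.3 with Ascl2 and 21.5 with the empty vector (0.48), so it and Cd74 lay on opposite sides of 0. Ctsz was 195 with Ascl2 and 241.6 with the empty vector (−0.31), and Ctsh was 136 and 165.5 (−0.28). Ifi30, the thiol reductase of the antigen processing compartments, was 343 with Ascl2 and 384.7 with the empty vector (−0.17).

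Among 15 listed genes of class II turnover and trafficking (median 0.01), Tfeb was at least 1.5-fold lower with Ascl2 and none was 1.5-fold higher. Of kept genes, 4.31% were at least 1.5-fold lower and 5.01% at least 1.5-fold higher. Tfeb, a transcription factor of lysosomal genes, was 16.9 with Ascl2 and 32.2 with the empty vector, a log2 ratio of −0.89. Lamp1, a lysosomal membrane gene, was 99.5 with Ascl2 and 104.7 with the empty vector (−0.07). March1, the ubiquitin ligase that removes class II from the surface, was 8.69 with Ascl2 and 7.84 with the empty vector (0.13), and Cd83, which counteracts it, was 331.4 and 328.5 (0.01). Of 12 genes of cytokine pathways that act on class II levels (median −0.06), Il10 was at least 2-fold higher with Ascl2, at 12.3 against 4.63 with the empty vector (1.24), and none was 1.5-fold lower. At least 2-fold higher were 1.53% of kept genes. Socs1 had the lowest ratio of this list, at 18.15 with Ascl2 and 27.12 with the empty vector (−0.55), just short of 1.5-fold. Il4ra, the receptor of the class II inducer IL-4, was 147.4 with Ascl2 and 161.6 with the empty vector (−0.13).

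Class I presentation genes, which load peptides from the cytosol, serve as a related pathway. Of 19, none was 1.5-fold apart, and 12 had a log2 ratio below 0, where 51.6% of kept genes did. The median was −0.11, against −0.20 for the class II genes. With 1 library per group this difference in medians was not tested. Psmb8, which is on this list too, was the lowest (−0.42), and Canx and Pdia3, folding factors of the endoplasmic reticulum, were the highest, at 165.9 with Ascl2 and 126.2 with the empty vector (0.39) and at 189 and 162.2 (0.22). The class I heavy chain gene H2-K1 was 840.9 with Ascl2 and 937.2 with the empty vector (−0.16), and the light chain gene B2m was 3454 and 3118 (0.15). H2-Ab1 over B2m was 0.335 with Ascl2 and 0.504 with the empty vector. Of 6 costimulatory ligands, Cd86 and Icosl were past 1.5-fold on the higher side and none was 1.5-fold lower. Of kept genes, 5.01% were at least 1.5-fold higher and 4.31% at least 1.5-fold lower. Cd86, which B cells display beside class II to T cells, was 50.8 with Ascl2 and 6.29 with the empty vector (2.83). Icosl was 5.12 with Ascl2 and 2.69 with the empty vector (0.73).

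**Figure D5:**
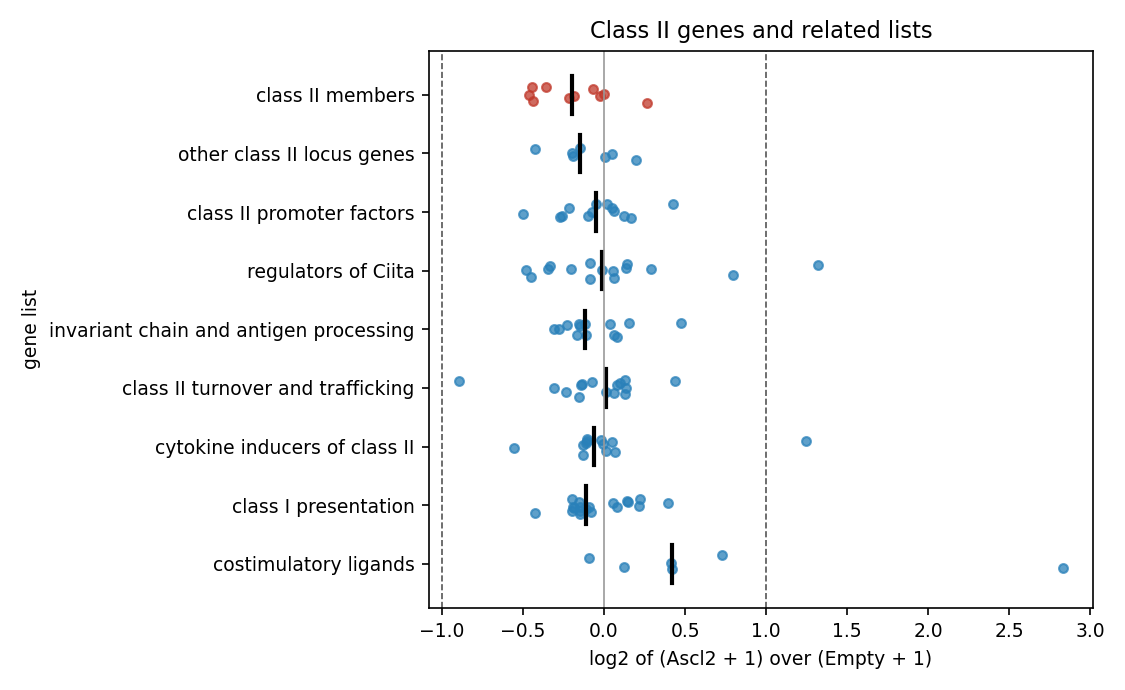
Log2 ratio (horizontal axis) of each gene in the class II group (red, top) and in 8 related lists (blue), 1 point per kept gene, with a black bar at the list's median and dashed lines at 2-fold. The class II median lies at −0.20 and that of the costimulatory ligands at 0.42, where Cd86 stands at 2.83.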

How the data were processed

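RNA was measured in 1 RVKM-Ascl2 and 1 RVKM-Empty library, grouped by sample title. The authors deposited an abundance signal for each gene, scaled for depth and apparently for length. Neither the name of the unit nor the quantifier, gene models and strand handling is stated in the labels or file headers. The submitters' processing notes name MACS2, Picard, Bowtie2 and Trim Galore and the build mm10, with no role for any of them. Because total read numbers are unknown, counting intervals were not computed. In 1842 genes under 1.2 in both libraries the low-value ratios clustered at 1.15 (34 genes, against a median of 11 per interval of the log-ratio histogram, Ascl2 over empty vector). Such a step could reflect unequal depth or composition, and depth was not measured.

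Log2 ratios used a pseudocount of 1 and genes reaching 1 in at least 1 library, with no p-value because groups had 1 library. Symbols matched the gene column, and 20 symbols turned into dates were looked up by identifier. Positions and spans come from RefSeq on GRCm38.p6. The 2-fold calls, on changes past 2-fold, and the rescaling factors were tested on simulated data. Smaller differences, the promoter search, the level ratios and the step over genomic span described below were not. The class II genes and lists were chosen with earlier results of these data known. The text names all class II genes and, from each related list, genes at least 1.5-fold apart or otherwise the 3 with the largest ratios. Ctss, Ifi30, Rfx5, Rfxank, Rfxap, Spi1, Irf8, Irf4, Tcf3, Lamp1, March1, Cd83, Il4ra, Socs1, H2-K1, B2m, Brd2 and Gm20506 were added after their values were seen. The level ratios of Cd74 to the summed classical chains, of DM to DO and of H2-Ab1 to B2m or Ciita were added likewise. The 3 rescalings multiplied the Ascl2 values by 1.01 (equal median), 1.07 (equal sum without the 20 most abundant and immunoglobulin genes) and 1.02 (equal upper quartile). Python 3.11.15, numpy 2.4.6 and pandas 2.3.3 were used.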

Additional observations from a re-analysis of the deposited data

How the results depend on the processing

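Without replicates, a log2 value that moved by less than 0.1 counts as unmoved. The same 0.1 was applied to shares in percentage points and to level ratios without a log. A count within 1.5 times the reported one counts as unmoved too, so 6 in place of 9 genes below 0 does. By these limits 152 of the log2 values, shares and level ratios under an alternative did not move and 16 did, and 38 counts did not and 6 did. Part of the unmoved values could hardly have moved, such as the class II genes under either filter and the level ratios with 1 added. The tally is therefore no measure of how firm the results are. The median over the 10 class II genes was −0.20 with a pseudocount of 0.1 or 5 and with either filter setting. All 10 lie well above these settings. With the sums made equal without the 20 most abundant and immunoglobulin genes, the class II median was −0.10. The median over all kept genes went from −0.01 to 0.08 in the same step. That rescaling also put the turnover and trafficking list at 0.11. Under it the medians of the promoter factors, Ciita regulators and cytokine pathways changed sign, to 0.05, 0.09 and 0.03. The median over all kept genes changed sign too, and by the limit above these lists count as unmoved. At a limit of 1.2-fold in place of 2-fold, 4 class II genes were lower with Ascl2. Without immunoglobulin genes and Pcdh15 in the total, the class II genes took 1.36% of it with Ascl2 and 1.62% with the empty vector. An alternative chosen after the data were seen subtracted a running median of the log2 ratio over genes ordered by genomic span (Spearman rho 0.19 across 11327 genes). The class II median was then −0.12 and 7 of 10 genes were below 0, against 49.8% of all genes after the same step, with H2-Aa at 0.08 and H2-DMb1 at 0.12. The same step put the antigen processing list at 0.051 and the class I list at 0.011. Median and mean differed in sign in the lists of Ciita regulators (−0.01 and 0.05), cytokine pathways (−0.06 and 0.02) and turnover and trafficking (0.01 and −0.06), so their medians give no direction. The cause of the shifts was not tested. Cd74, H2-Ab1, H2-DMa, H2-Oa, H2-Eb1 and H2-DMb2 were below 0 and H2-Ob above 0 in every setting. H2-Eb1 and H2-DMb2 came as near to 0 as −0.11 and −0.08. No paired analysis was possible because each group had 1 library. No replicate could be left out for the same reason.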
